A study of Mus musculus with 16 samples.

Results

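Promoters that carried both H3K4me3 and H3K27me3 in haploid spermatids, called bivalent here, were taken from the starts of all 20807 autosomal protein-coding genes of the GENCODE vM21 annotation. A window of 1 kb was placed on either side of each start. The distinct fragments of both WT libraries of a mark were pooled, and the fragments with their midpoint in a window were divided by the number that an even spread of the pool over the autosomes would place there. This quotient is called the fold below. A window was a member where the fold was at least 5 for H3K4me3 and at least 5 for H3K27me3, which held for 953 of the 20807 promoters (4.58%). The members were thus chosen by their WT folds, so these folds are given as a description only, and the KO libraries, fragment lengths, and H3K9me3 and IgG fragments are the measures that the rule did not use.

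The spermatids came from 2 sibling pairs of 2-month-old, non-mated male mice, each with 1 WT and 1 KO animal (replicates 1 and 2). Live testis cells were stained with Hoechst and propidium iodide and sorted, with haploid cells taken by their DNA content and red UV shift. KO males carry disrupted copies of all 3 H2A.B genes on chromosome X (H2afb1, H2afb2, and H2afb3), made with CRISPR/Cas9 in B6;SJLF1/J zygotes, as a single line that was backcrossed to C57BL/6J. WT males are their siblings from the same backcross with intact H2A.B genes. AutoCUT&RUN uses an antibody to bring MNase to its target in chromatin, and the released DNA is sequenced from both ends, so each fragment has a position and a length. With 3 histone antibodies (H3K4me3, H3K27me3, H3K9me3) and IgG as the control, each of the 4 animals gave 4 libraries, 16 in all.

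H3K4me3 is placed by Trithorax-type methyltransferases and marks starts of transcription, and H3K27me3 is placed by Polycomb repressive complex 2 and marks repressed developmental genes. Promoters with both were first known from embryonic stem cells, where many belong to regulators of lineage choice that are silent but can be switched on. Mouse male germ cells also hold both marks at developmental promoters, through meiosis and into spermatids. An assay on pooled cells cannot tell apart both marks on the same nucleosome, on neighbouring nucleosomes, or on different cells, and fewer cells with a mark cannot be told apart from less of the mark in each cell.

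Depth set the grain of these values. Distinct autosomal fragments ranged from 708411 to 3229214 in the H3K4me3 libraries, from 196218 to 3773436 for H3K27me3, from 3136799 to 3963850 for H3K9me3, and from 140181 to 236269 for IgG. A fold of 1 stood for 2.24 pooled WT fragments per window for H3K4me3 and 2.49 for H3K27me3. The H3K27me3 library of WT replicate 2 stood apart in depth, with 0.160 fragments per window at a fold of 1, so that 1 fragment already passed a fold of 5 there. As a check of the labelled cell type, 48 of 49 spermatid genes were past the H3K4me3 threshold in WT, against 0 of 21 markers of testis somatic cells. Also past it were 33 of 40 meiotic genes, 67 of 72 ribosomal protein genes, and 47.2% of all promoters. The check therefore cannot tell spermatids from meiotic germ cells.

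The highest members were not typical of the rest. The 12 members with the largest smaller fold were all predicted genes (names with Gm and a number) on chromosomes 2, 9, and 14, with WT folds from 384 to 1939 for H3K4me3 and from 404 to 2441 for H3K27me3. They were also the 12 members with the most IgG fragments, from 2163 to 10477 over the 4 IgG libraries, and their H3K9me3 folds over 4 libraries ran from 5759 to 23648. Between 49.9% and 97.8% of their windows is soft-masked as repeat in the assembly. Together with Gm9758, Galnt10, and Rps29, whose windows held 12, 21, and 47 IgG fragments, they form 15 members with at least 10 IgG fragments, a limit that was set after these values were seen. In these 15 windows lay 4.55% to 11.3% of all autosomal IgG fragments and 9.80% to 12.8% of all H3K9me3 fragments. Summed over the 15, the IgG fold was 6419 and 4999 in WT and 9423 and 3778 in KO. The H3K4me3 fold was lower in each replicate, with 839 and 414 in WT and 1019 and 332 in KO. So was the H3K27me3 fold, with 615 and 973 in WT and 549 and 3386 in KO. As a sum, neither mark was thus enriched over IgG there, although the rule counts these windows as bivalent. Sums over members are therefore given for the other 938 members, called members outside these windows, with values over all 953 for the main differences. Reads from near-identical copies cannot be assigned to a single copy, so the values of the Gm windows are uncertain as values of those genes.

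The promoter sequences below run from 250 bases before to 50 bases after the gene start, 5′ to 3′ on the gene's strand, in GRCm38.p6, with each CpG dinucleotide in capitals. The first 3 are shown because they are the members with the largest smaller fold, on chr2:98667252-98667551 (- strand), chr9:3000672-3000971 (+ strand), and chr9:3023297-3023596 (+ strand). Their CpGs are few, 3, 5, and 5 in 300 bases.
Gm10800: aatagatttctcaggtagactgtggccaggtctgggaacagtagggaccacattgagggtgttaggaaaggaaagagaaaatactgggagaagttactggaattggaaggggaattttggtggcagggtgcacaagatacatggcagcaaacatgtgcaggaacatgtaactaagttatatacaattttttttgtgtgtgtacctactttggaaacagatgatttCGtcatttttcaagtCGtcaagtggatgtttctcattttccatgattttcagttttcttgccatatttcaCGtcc
Gm10722: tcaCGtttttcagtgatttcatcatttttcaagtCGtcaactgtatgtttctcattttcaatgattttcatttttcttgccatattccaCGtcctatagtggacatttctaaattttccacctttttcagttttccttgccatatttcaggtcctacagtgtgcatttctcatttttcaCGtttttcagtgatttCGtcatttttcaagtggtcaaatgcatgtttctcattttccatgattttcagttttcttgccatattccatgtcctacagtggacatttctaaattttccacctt
Gm10718: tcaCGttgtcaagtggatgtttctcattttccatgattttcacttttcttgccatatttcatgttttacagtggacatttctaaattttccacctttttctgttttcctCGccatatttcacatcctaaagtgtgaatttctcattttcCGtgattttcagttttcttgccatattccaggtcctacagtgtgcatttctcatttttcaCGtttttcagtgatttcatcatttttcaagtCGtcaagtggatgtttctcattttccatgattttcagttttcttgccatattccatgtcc
Gm10800 and Gm10718 share an unbroken run of 65 bases, Gm10722 and Gm10718 a run of 50, and Gm10800 and Gm10722 a run of 42, whereas no pair that includes Sox17, Kif2b, or Bcl6 shares more than 10. The next 3 are from members outside these repeats and were chosen after their values were seen, to show a developmental gene (Sox17), the stretch with the most CpGs of the 3 (Bcl6), and a gene of the spermatid (Kif2b). Sox17 lies at chr1:4497305-4497604 (- strand), Bcl6 at chr16:23988803-23989102 (- strand), and Kif2b at chr11:91577509-91577808 (- strand).
Sox17: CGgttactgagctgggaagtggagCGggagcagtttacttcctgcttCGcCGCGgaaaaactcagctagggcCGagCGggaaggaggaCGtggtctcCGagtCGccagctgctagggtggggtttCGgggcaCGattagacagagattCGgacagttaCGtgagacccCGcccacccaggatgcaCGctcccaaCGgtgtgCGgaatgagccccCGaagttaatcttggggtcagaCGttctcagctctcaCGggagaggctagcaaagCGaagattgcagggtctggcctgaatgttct
Bcl6: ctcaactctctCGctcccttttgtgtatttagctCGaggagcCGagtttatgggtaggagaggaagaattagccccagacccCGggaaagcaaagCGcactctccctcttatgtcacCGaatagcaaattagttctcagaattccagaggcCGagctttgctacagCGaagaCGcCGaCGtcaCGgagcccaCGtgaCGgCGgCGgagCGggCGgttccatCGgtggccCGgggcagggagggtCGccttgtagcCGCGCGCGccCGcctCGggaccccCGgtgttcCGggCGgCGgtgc
Kif2b: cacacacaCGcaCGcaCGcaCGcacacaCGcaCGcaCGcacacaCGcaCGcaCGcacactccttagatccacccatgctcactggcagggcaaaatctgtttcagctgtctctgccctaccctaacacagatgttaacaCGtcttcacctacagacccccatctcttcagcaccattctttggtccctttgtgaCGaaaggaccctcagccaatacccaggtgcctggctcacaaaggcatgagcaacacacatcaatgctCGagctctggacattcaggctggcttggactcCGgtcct
These hold 22 CpGs in Sox17, 31 in Bcl6, and 14 in Kif2b, and those of Kif2b lie mostly in a CA-rich repeat at the 5′ end of the stretch. For comparison, Nid1 at chr13:13437301-13437600 (+ strand) had the highest H3K27me3 fold, 124, among promoters with an H3K4me3 fold under 2, and Gm15319 at chr8:20363161-20363460 (- strand) had the highest H3K4me3 fold, 223, among those with an H3K27me3 fold under 2.
Nid1: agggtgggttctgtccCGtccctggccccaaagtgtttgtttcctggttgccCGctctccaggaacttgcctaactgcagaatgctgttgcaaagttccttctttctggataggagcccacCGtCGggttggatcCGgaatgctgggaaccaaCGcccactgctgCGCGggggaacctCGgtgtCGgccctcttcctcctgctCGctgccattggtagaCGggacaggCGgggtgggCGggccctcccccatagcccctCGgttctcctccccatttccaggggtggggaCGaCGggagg
Gm15319: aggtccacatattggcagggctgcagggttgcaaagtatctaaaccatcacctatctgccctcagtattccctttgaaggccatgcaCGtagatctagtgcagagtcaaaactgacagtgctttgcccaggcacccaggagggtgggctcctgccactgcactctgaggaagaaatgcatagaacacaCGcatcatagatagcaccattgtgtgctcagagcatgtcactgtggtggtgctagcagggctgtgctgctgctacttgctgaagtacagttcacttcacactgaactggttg
The stretch of Nid1 has 17 CpGs and that of Gm15319 has 2.

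In WT, 9818 promoters (47.2%) were past the H3K4me3 threshold and 5232 (25.1%) past that of H3K27me3. The 953 members were 9.71% of the former and 18.2% of the latter. Their median fold was 9.83 for H3K4me3 (quartiles 6.71 and 16.1) and 17.3 for H3K27me3 (8.84 and 31.8), and 622 of them (65.3%) had the larger fold for H3K27me3. Compared with promoters that had little of the other mark (a fold under 2), both medians were lower. The 8361 H3K4me3-only promoters had a median H3K4me3 fold of 19.7, and the 3345 H3K27me3-only promoters a median H3K27me3 fold of 35.4. Across members outside the windows rich in IgG, the folds of both marks had a Spearman correlation of -0.170 in WT and -0.157 in KO over 938 promoters, which share libraries and the selection at the threshold. Over all 20750 promoters with under 10 IgG fragments it was -0.175 in KO, so it was not particular to members.

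**Figure D1:**
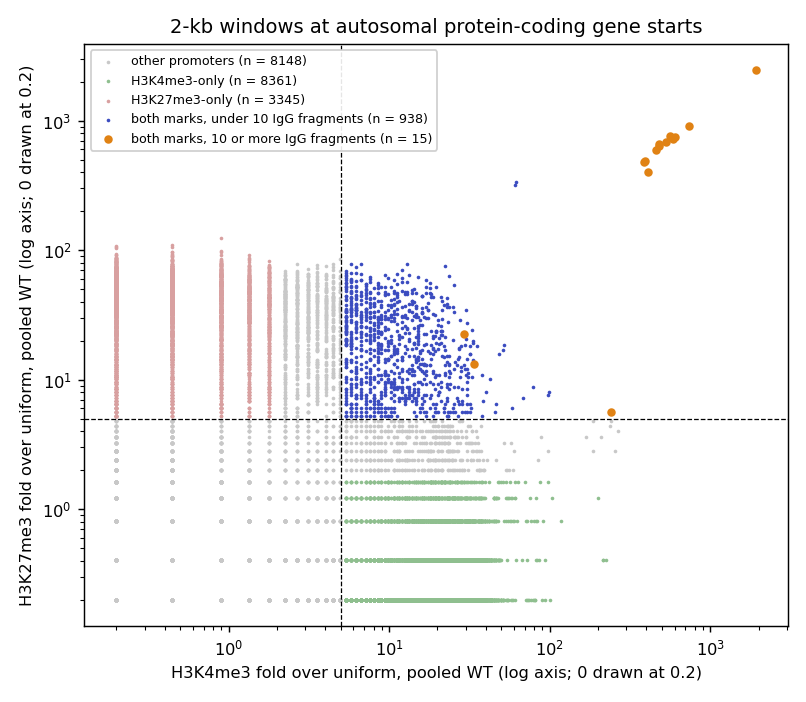
Pooled WT folds of H3K4me3 (x) and H3K27me3 (y) on log axes at all 20807 autosomal promoters, 1 point per promoter, with dashed lines at a fold of 5. The 938 members with under 10 IgG fragments fill the upper right corner without a gap from their neighbours, and 12 of the 15 members with at least 10 IgG fragments lie apart at the top right, from 384 upward for H3K4me3 and from 404 upward for H3K27me3.

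Membership was soft at the threshold. For H3K4me3, 12 pooled WT fragments made a fold of 5.36 (95% Poisson interval 2.77 to 9.37) and 11 made 4.92 (2.45 to 8.80), and 77 and 75 promoters past the H3K27me3 threshold lay at these counts. For H3K27me3, 13 fragments made 5.23 (2.78 to 8.94) and 12 made 4.82 (2.49 to 8.43), with 32 and 31 promoters. Just inside lay Bmpr2, CT030661.1, Camk2n1, and Ccdc81, all with an H3K27me3 fold of 5.23. Just outside lay 1110032F04Rik, Abcb1b, Ankrd6, and Arhgap21, all with an H3K4me3 fold of 4.92, and these 8 were taken in alphabetical order from the ties. The smaller fold was within 1.5 times the threshold in 402 members (42.2%) and at least 10 in 321 (33.7%). With the same rule on a single WT replicate, 1499 promoters were past both thresholds without replicate 1, of which 664 were members, and 1356 without replicate 2, of which 887 were.

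The KO libraries, which the rule did not use, gave both marks at most of the same promoters. In the pooled KO libraries 769 of the 953 members (80.7%) were past both thresholds, 838 (87.9%) past that of H3K4me3, 874 (91.7%) past that of H3K27me3, and 10 past neither. Among all promoters, 965 (4.64%) were past both in KO, so the shared 769 are 79.7% of the KO set. Of the 307 members with a smaller WT fold of at least 10 outside the windows rich in IgG, 305 (99.3%) were past both in KO, against 244 (60.7%) of the 402 members within 1.5 times the threshold. The median KO folds of all members were 10.4 for H3K4me3 and 16.3 for H3K27me3. In single libraries, 522 members (54.8%) were past 5 in each of the 4 KO libraries of both marks, compared with 590 (2.84%) of all promoters.

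Developmental and neuronal genes were members more often than promoters as a whole, but about as often as all promoters with H3K27me3. They made up 69 of the 953 members, most with much H3K27me3 and a modest H3K4me3 fold. Over 7 lists of developmental regulators, signalling genes, and neuronal channels with 422 promoters, 69 (16.4%) were members, against 4.58% of all promoters. H3K27me3 was past the threshold at 368 of the 422 and H3K4me3 at 92. The 69 are 18.8% of these 368, near the 18.2% over all promoters past the H3K27me3 threshold, and 248 of the 422 (58.8%) were H3K27me3-only, against 16.1% of all promoters. The median folds of the 69 were 8.05 for H3K4me3 and 28.9 for H3K27me3 in WT and 9.07 and 27.3 in KO. Of the 69, 55 had the larger WT fold for H3K27me3, and 64 were past both thresholds in KO.

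HOX genes, which set position along the body axis, were mostly outside, as were the genes of the other developmental and neuronal lists. Members made up 12.8% of HOX promoters, 13.4% to 20.3% in those other lists, and 4.58% of all promoters. H3K27me3 was past the threshold at 37 of 39 HOX promoters, but H3K4me3 at 5, and these 5 were the members Hoxb5, Hoxc12, Hoxd3, Hoxd4, and Hoxd8. The annotated starts of Hoxd3 and Hoxd4 lie within a few bases of each other, so both have the same pooled folds, 8.05 and 37.0, and count as a single observation. In Hoxc12 the H3K4me3 fold was 6.95 and 6.02 in the WT libraries and 0.987 and 3.05 in the KO libraries, on 1 to 10 fragments each. The log2 difference was -1.41 ± 0.73 (SE, limma, adjusted p = 1), and the WT values are those that chose the gene. Hoxb5 had 13.9 and 6.62 in WT and 11.8 and 6.09 in KO, and its WT and KO values overlapped.

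Other homeobox factors gave 13 members of 79, among them Irx5, Nkx6-1, Vax2, Dlx6, Gsc, and Lhx1. Irx5, a patterning factor of the heart and retina, had the highest pooled WT fold of H3K4me3 among the members of this list, 20.6. Its values were 19.1 and 21.1 in WT and 26.6 and 27 in KO for H3K4me3, and 18.5 and 25.1 in WT and 16.0 and 10.8 in KO for H3K27me3. Neither difference was called by limma (adjusted p = 1 for both). In the H3K27me3 libraries of replicate 2, a fold of 1 stood for only 0.160 fragments in WT and 0.557 in KO, and the WT values are those that chose the gene. Nkx6-1, which acts in pancreatic beta cells and motor neurons, had pooled folds of 18.3 and 14.5 in WT and 19.8 and 14.6 in KO. Gsc, the organizer gene, leaned to H3K27me3, with 7.15 and 49.5 in WT and 8.79 and 55.7 in KO.

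The SOX, FOX, GATA, and T-box list gave 13 members of 64. Sox17, which specifies endoderm, was the member of all these lists with the largest smaller fold outside the repeats. Its H3K4me3 fold was 33.0 and 22.9 in the WT libraries and 22.7 and 21.3 in the KO libraries, and its H3K27me3 fold was 54.6 and 43.9 in WT and 51.8 and 35.9 in KO. All 8 values lay far above 5. WT and KO overlapped for H3K27me3, and for H3K4me3 the nearest values, 22.9 in WT and 22.7 in KO, almost met. The WT values are those that chose the gene, and its H3K4me3 window was not called by limma. Tbx1, a regulator of the pharyngeal arches, had pooled folds of 13 and 46.2 in WT and 12.9 and 43.6 in KO. Foxa3, a liver factor, was closer to balance, with 18.8 and 11.3 in WT.

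Of 63 lineage factors of the bHLH and zinc finger families, 12 were members. Snai2, which acts in the epithelial-mesenchymal transition, had H3K27me3 folds of 62.7 and 50.1 in WT and 71.1 and 32.3 in KO beside H3K4me3 folds of 15.6 and 15.1 in WT and 20.7 and 13 in KO. Hand1, a factor of the heart and trophoblast, had lower H3K4me3 folds, with 5.21 and 6.62 in WT and 3.95 and 5.71 in KO. Klf2, a factor of blood vessels, leaned to H3K4me3, with pooled WT folds of 30.4 and 9.65.

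Signalling genes gave 8 members of 46 in the WNT list and 9 of 67 in the list of TGF-beta, FGF, Hedgehog, and Notch genes. Among ligands, Wnt2b had WT folds of 5.36 for H3K4me3 and 55.9 for H3K27me3, Ihh 6.26 and 44.2, Tgfb3 12.5 and 37.0, and Fgf8 15.2 and 22.5. Among receptors, Fzd1 had 6.26 and 42.2 and Fgfr3 5.81 and 31.8. Lef1, the nuclear partner of beta-catenin, had 18.8 and 20.9. The list of neuronal channels and receptors gave 9 of 64, 7 of them potassium channels, with Kcnc2 at 14.8 and 37.0.

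As shares of all their promoters, other lists stood nearer to or below the background of 4.58%. Among 46 Polycomb and Trithorax genes 3 were members. They encode Polycomb-group proteins or partners, Kdm2b (29.5 and 18.5 in WT, 33.3 and 17.9 in KO), Cbx8 (13.4 and 19.7 in WT), and Pcgf2 (6.71 and 9.65 in WT). Of 49 spermatid genes 3 were members, of 72 ribosomal protein genes 2, of 40 meiotic genes 0, and of 21 testis somatic markers 0. Past the H3K27me3 threshold were 7 Polycomb and Trithorax, 3 spermatid, 3 ribosomal, 1 meiotic, and 11 somatic promoters. Of these, 3, 3, 2, 0, and 0 were members, small counts beside the 18.2% over all promoters past that threshold. Tnp1, which encodes transition protein 1 of the histone-to-protamine exchange, was a spermatid member with H3K4me3 folds of 13.9 and 14.4 in WT and 17.8 and 24.8 in KO, and H3K27me3 folds of 11.6 and 0 in WT and 8.15 and 5.39 in KO. The H3K27me3 value of 0 comes from the shallow library. H1fnt, a spermatid linker histone, had pooled folds of 13.9 and 10.9 in WT and 23.1 and 4.97 in KO. The ribosomal member Rps29 is among the windows rich in IgG, and its H3K27me3 folds of 6.01 and 263 in WT and 0.978 and 44.9 in KO differed widely between replicates, and the KO value was lower in both sibling pairs. With the pair as a block, this window was called (below).

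Outside the windows rich in IgG, the members with the largest smaller folds were AW822073, Duxf3, Ppp1r18, Eml2, Kif2b, Pak7, Sox17, Pdgfa, Ccin, Fam214b, Samd13, and Rab31, named after their values were seen. Duxf3 belongs to the Dux array, which encodes an activator of genes at zygotic genome activation. Its H3K27me3 folds were 327 and 238 in WT and 280 and 201 in KO, and its H3K4me3 folds 33.0 and 71.0 in WT and 41.4 and 75.8 in KO. AW822073, its neighbor on chromosome 10, had pooled WT folds of 61.7 and 334. Both windows had H3K9me3 folds of 11.1 and 10.7 over 4 libraries and 2 and 3 IgG fragments. Copies of the array share reads, so these values may sum several copies. Kif2b, a testis-expressed kinesin, and Ccin, which encodes calicin of the sperm head, are genes of the spermatid itself. Kif2b had H3K4me3 folds of 15.6 and 35.5 in WT and 38.5 and 41.5 in KO and H3K27me3 folds of 27.1 and 31.3 in WT and 23.5 and 8.98 in KO. Ccin had 33.0 and 32.5 in WT and 20.7 and 36.6 in KO for H3K4me3, and 24.9 and 12.5 in WT and 24.4 and 5.39 in KO for H3K27me3. Etv2, which specifies blood and vessel progenitors, had 19.1 and 24.1 in WT and 25.7 and 24.4 in KO for H3K4me3, and 43.4 and 37.6 in WT and 43.7 and 28.7 in KO for H3K27me3. Fam214b had H3K27me3 folds of 62.7 in both WT libraries and 60.6 and 62.8 in KO.

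The highest pooled KO folds were again those of the Gm repeat windows. Outside them, Trpm8 and Hjurp, divergent genes whose windows share nearly all fragments, led for H3K4me3 with KO folds of 90.4 and 90.1. For H3K27me3, Fcgr3 (93.0), Cdk18 (86.6), and Elfn2 (85.8) followed AW822073 and Duxf3 in KO, all named after their values were seen.

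Some memberships rested on a single library. The 5 members with the lowest pooled KO fold of H3K4me3 were Tnik, Npr1, Vgll2, Coro6, and Meis3, with KO folds from 0.550 to 1.65 and WT folds from 5.36 to 6.26. In Tnik the WT folds were 19.1 and 0.602 and the KO folds 0.987 and 0.381, so 11 of its 12 WT fragments came from replicate 1. Of the 5 lowest KO folds of H3K27me3, 4 are given here: Nme8 had 0.276, Nipsnap3a 1.10, Defb36 1.93, and CT030661.1 2.21. In Nme8 the WT folds were 6.01 and 0 and the KO folds 0 and 1.80, and all its WT fragments came from replicate 1. H3K4me3 was under a fold of 5 in at least 1 of the WT libraries in 188 members. In each of the 4 WT libraries of both marks, 613 members (64.3%) were past 5. In the H3K27me3 library of WT replicate 2, however, 1 fragment was enough for this.

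**Figure D2:**
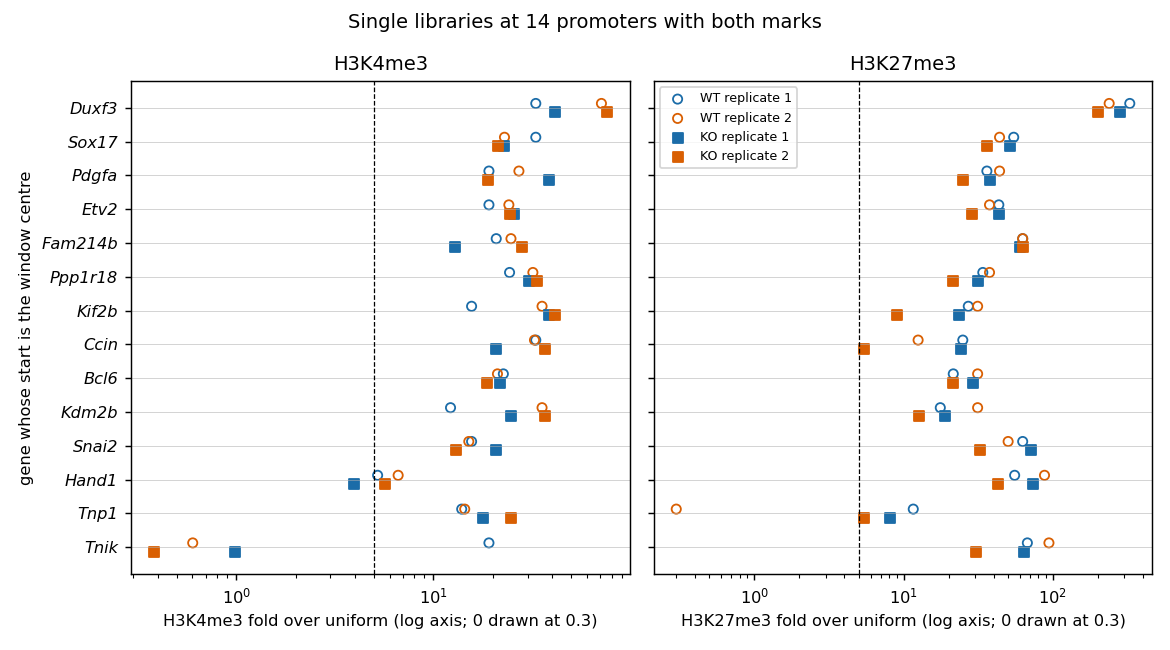
Fold of H3K4me3 (left) and H3K27me3 (right) in each single library on log axes at 14 members, with open circles for WT, filled squares for KO, blue for replicate 1, and orange for replicate 2, and a dashed line at a fold of 5. In the genes at the top, such as Sox17 and Etv2, all 8 values are at least 19.1, whereas in Tnik only the WT replicate 1 value of 19.1 is past the line for H3K4me3 and in Tnp1 the H3K27me3 value of WT replicate 2 is 0.

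The marked regions reached past the window into the flanks, from 2 to 5 kb on either side of the start, outside the windows rich in IgG. The H3K27me3 flank folds were 8.06 and 7.33 in WT and 8.68 and 6.34 in KO at bivalent promoters, and 7.54 and 7.58 in WT and 8.32 and 6.28 in KO at H3K27me3-only promoters, so the classes overlapped. The H3K4me3 flank folds were 4.09 and 4.88 in WT and 4.54 and 5.26 in KO, against 4.96 and 5.96 in WT and 5.44 and 5.69 in KO at H3K4me3-only promoters, lower in each of the 4 libraries. These are given as a description, since the windows between the flanks chose the members.

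**Figure D3:**
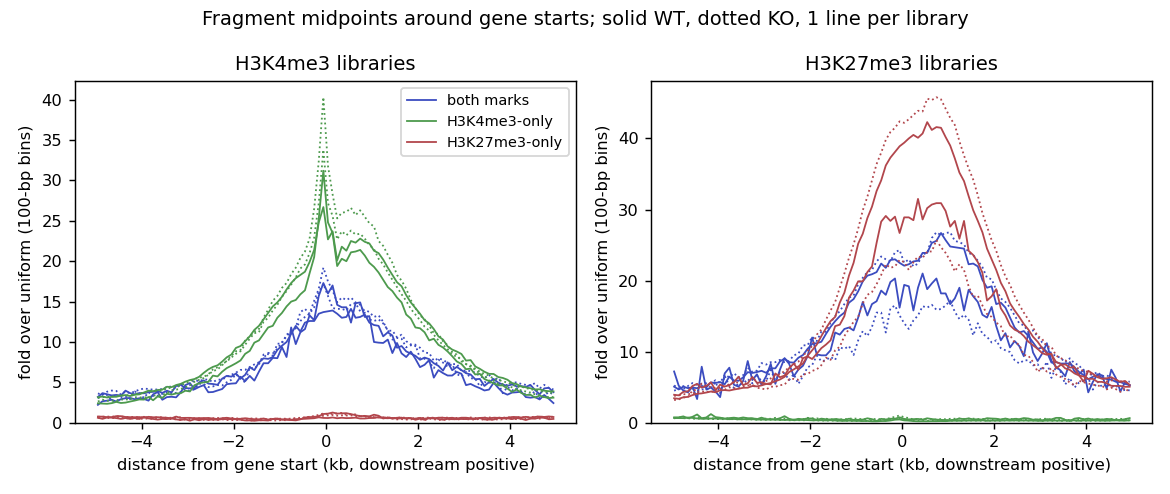
Fold in 100-bp bins against the distance from the gene start in kb, for H3K4me3 (left) and H3K27me3 libraries (right), with 1 line per library, solid for WT and dotted for KO, for bivalent promoters (blue), H3K4me3-only (green), and H3K27me3-only promoters (red). The blue lines lie under the single-mark class of the same mark around the start in each library and come close to it in the flanks, and the peak at the start in the H3K4me3 libraries is lower in blue than in green.

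The positions of both marks were compared by the mean midpoint of each mark in the window. In KO, 720 members outside the windows rich in IgG had at least 20 fragments of both marks. The distance between these centers had a median of 170 bp and was under 250 bp in 474 of the 720 (65.8%) and 500 bp or more in 73 (10.1%). A broad signal in a symmetric window has its mean midpoint near the start in any case, so near centers do not show that the marks cover the same bases. Of the 73, H3K4me3 lay downstream in 37 and H3K27me3 in 36. In WT, with fewer fragments, 426 members could be measured, with a median distance of 173 bp.

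The windows of members held a median of 91.0 CpGs, against 87.0 in H3K4me3-only, 68.0 in H3K27me3-only, and 64.0 in all promoters. The ratio of observed to expected CpG, which takes base composition into account, lay between the single-mark classes. Its median was 0.589 in members, 0.637 in H3K4me3-only, 0.485 in H3K27me3-only, 0.170 in promoters past neither threshold, and 0.486 in all promoters. The median GC content was highest in members, 56.4% against 52.8% and 54.0% in the single-mark classes and 51.5% over all. The motif GGGCGG, the core of the GC box that SP1 binds, was found on either strand in the 300 bases at the start in 60.7% of members, 58.8% of H3K4me3-only, 50.9% of H3K27me3-only, and 43.7% of all promoters. TATAAA was found in 10.4% of members, 6.57% of H3K4me3-only, 10.1% of H3K27me3-only, and 12.7% of all promoters, and in 23.1% of those past neither threshold. CCAAT was found in 37.1% of members, 40.2% of H3K4me3-only, 34.2% of H3K27me3-only, and 38.6% of all promoters. For TGACGTCA these shares were 2.83%, 4.20%, 1.43%, and 2.43%. GGGCGG is itself rich in the letters that raise GC content. Another protein-coding start lay within 1 kb in 13% of members, 24.9% of H3K4me3-only, 4.69% of H3K27me3-only, and 12.9% of all promoters, and overlapping windows made 888 separate regions of the 953. At such pairs, a mark of the neighbor cannot be told apart from that of the member.

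H3K9me3, the mark of constitutive heterochromatin, was below the genome-wide average at members outside the windows rich in IgG, with a median fold of 0.520 over the 4 libraries. All promoters with under 10 IgG fragments were lower still, with a median of 0.260. Summed over these 938 windows, its fold was 0.766 and 0.824 in WT and 0.738 and 0.914 in KO. On the log2 scale this was 0.76 ± 0.09 above H3K4me3-only promoters (SD, n = 4, higher in 4 of 4 libraries, exact sign-flip p = 0.125) and -0.07 ± 0.08 from H3K27me3-only promoters (n = 4, higher in 1 of 4, exact sign-flip p = 0.250). Over all 953 members these differences were 8.29 ± 0.09 and 7.46 ± 0.10, so their size rests on the 15 windows rich in IgG. The direction against H3K27me3-only promoters rests on them too. Both single-mark classes were summed without their 12 and 3 windows with at least 10 IgG fragments. The values over all 953 therefore set unfiltered members against filtered classes, here and in the size ratios below. Of the 938, 21 (2.24%) had an H3K9me3 fold of at least 5, against 2.34% of all promoters with under 10 IgG fragments, and they included Msx1, Duxf3, Hjurp, Trpm8, and 12 predicted Gm genes. Msx1, a homeobox gene of limb and craniofacial development, had 20 and 15 H3K9me3 fragments in KO and 14 and 21 in WT. IgG folds of the 938 were 0.640 and 0.603 in WT and 1.03 and 0.869 in KO. Against H3K4me3-only promoters this was a log2 difference of -0.88 ± 0.33, lower in 4 of 4 libraries (n = 4, exact sign-flip p = 0.125). The limit of 10 IgG fragments cut both classes on these same libraries, so IgG folds after the cut are a description and nothing is read from their p-values. Both KO libraries were above both WT libraries, by 0.61 on the log2 scale, with 0.69 and 0.53 in the pairs (exact permutation p = 0.333, the smallest that 2 against 2 allows), on 61 to 176 fragments each. The same difference was 0.20 over all promoters with under 10 IgG fragments, and over all 953 members it was 0.08, with 0.55 and -0.39 in the pairs. Over all 953 members the IgG fold was 6.09 ± 0.46 above H3K4me3-only promoters on the log2 scale (SD, n = 4).

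Fragments at bivalent promoters were mostly of nucleosome length in every mark library. Fragments of at most 120 bp are called small and those of at least 150 bp large. In the H3K4me3 libraries small fragments made 24.0% (95% Wilson interval 23.0 to 25.1) and 19.3% (18.7 to 19.9) of fragments in WT replicates 1 and 2 and 33.6% (32.8 to 34.4) and 31.4% (30.9 to 31.9) in KO, over the 938 members. In the H3K27me3 libraries the shares were 10.4% and 12.7% in WT and 16.3% and 21.8% in KO. In the H3K9me3 libraries they were 10.2% and 19.1% in WT and 15.2% and 23.4% in KO, and in the IgG libraries 47.7% and 50.8% in WT and 57.4% and 40.9% in KO, on 61 to 176 fragments each. Over all 953 members the shares were 22.2% and 20.1% in WT and 29.2% and 29.8% in KO for H3K4me3, and 12.4% and 18.2% in WT and 17.6% and 23.3% in KO for H3K27me3. For the 938, the KO libraries were higher than both WT libraries for H3K4me3 and H3K27me3, while the groups overlapped for H3K9me3 and IgG. The most frequent 10-bp length class began at 170, 180, or 190 bp in all 12 libraries of the 3 marks.

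**Figure D4:**
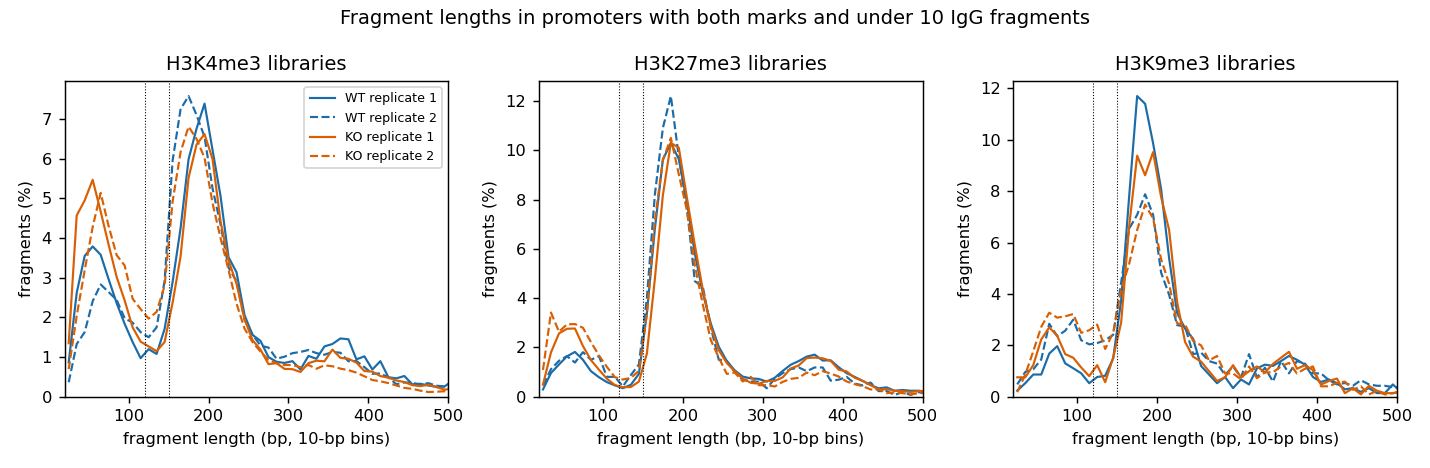
Share of fragments (%) per 10-bp length class in the 938 members with under 10 IgG fragments, in the H3K4me3, H3K27me3, and H3K9me3 libraries, for WT (blue) and KO (orange), replicate 1 solid and replicate 2 dashed, with dotted lines at 120 and 150 bp. The part under 120 bp is higher in both KO libraries than in both WT libraries for H3K4me3 and H3K27me3, and the main peak stays between 170 and 200 bp.

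Small over large fragments, as a log2 ratio, came to -1.59 and -1.95 in WT and -0.90 and -0.98 in KO over the 938 members in the H3K4me3 libraries. The difference between KO and WT was 0.83, with 0.68 and 0.98 in the sibling pairs and a replicate SD of 0.19. In the H3K27me3 libraries it was also 0.83, with 0.73 and 0.94 in the pairs and a replicate SD of 0.32, and in the H3K9me3 libraries 0.53, with 0.67 and 0.39 and a replicate SD of 0.71. The exact permutation test of 2 against 2 libraries gave p = 0.333 for the first 2, the smallest it allows, and 0.667 for H3K9me3. In IgG the difference was 0.09 with pairs of 0.58 and -0.41 (exact permutation p = 1). Over all 953 members the differences were 0.66, 0.53, 0.10, and 0.32 for H3K4me3, H3K27me3, H3K9me3, and IgG, and in the 15 windows rich in IgG they were 0.38, 0.17, 0.10, and 0.32. Over all autosomal fragments, the differences were 0.86, 0.69, 0.47, and 0.43, so a higher ratio in KO was also present outside bivalent promoters. The gap between members and H3K4me3-only promoters was -0.39 in KO and -0.41 in WT in the H3K4me3 libraries (exact permutation p = 0.667 for the change), and that to H3K27me3-only promoters was 0.34 in both in the H3K27me3 libraries (p = 1, exact permutation).

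Within a library of a mark, the 938 members lay between the other classes. In the H3K4me3 libraries the ratio in the 938 members differed from H3K4me3-only promoters by -0.40 ± 0.04 on the log2 scale (SD, n = 4 libraries), lower in 4 of 4. In the H3K27me3 libraries it was 0.34 ± 0.14 higher than at H3K27me3-only promoters, higher in 4 of 4. The exact sign-flip permutation test over 4 libraries gave p = 0.125 for both, which is the smallest it can give. Over all 953 members, these differences were -0.53 ± 0.17 and 0.65 ± 0.21. Against H3K27me3-only promoters in the H3K4me3 libraries, the 938 members differed by 0.28 ± 0.24, with 0.47 and 0.06 in WT and 0.51 and 0.09 in KO, and all 953 by 0.15 ± 0.15, with -0.04 in KO replicate 2. In the H3K9me3 libraries, the 938 members differed from H3K4me3-only promoters by -0.64 ± 0.09 and from H3K27me3-only promoters by 0.43 ± 0.16, lower and higher in 4 of 4 libraries (exact sign-flip p = 0.125, n = 4), with an antibody against neither mark. Over all 953 members, they were -0.47 ± 0.57 and 0.60 ± 0.66, with the opposite sign in WT replicate 1 (0.17) and in KO replicate 2 (-0.11), so that this order held in each library only without the 15 windows. The IgG libraries had no such order for the 938, with -0.08 ± 0.25 and -0.05 ± 0.85, and over all 953 members they had -1.55 ± 0.10 and -1.52 ± 0.72, below both classes in 4 of 4 libraries.

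**Figure D5:**
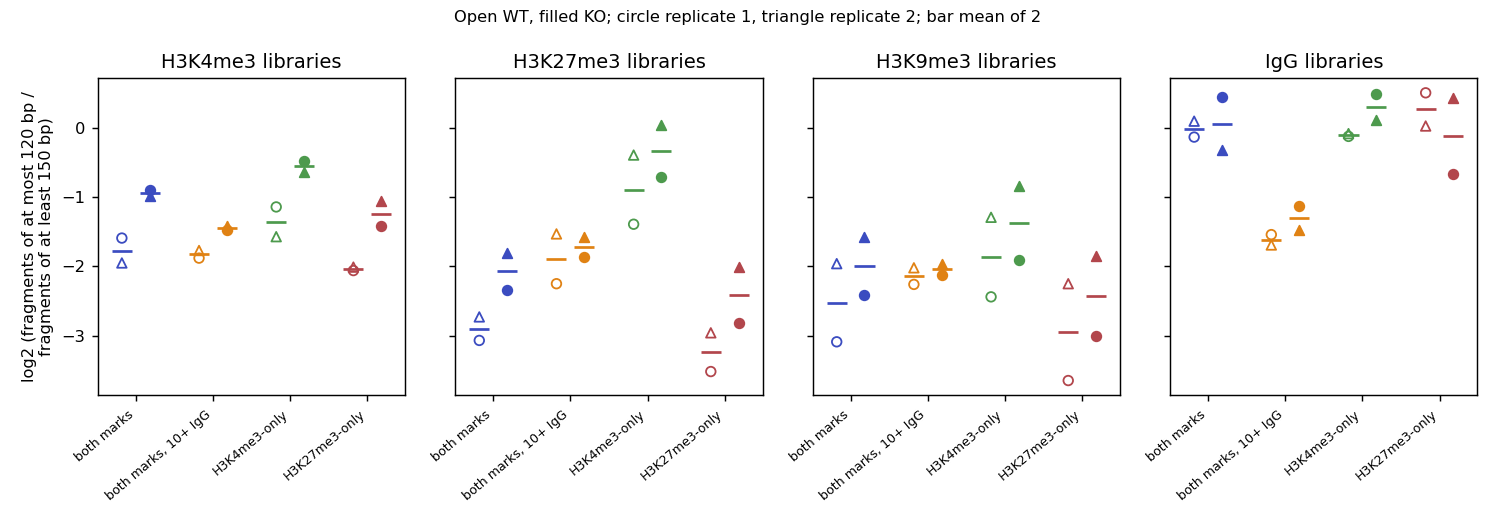
The log2 ratio of small (at most 120 bp) to large (at least 150 bp) fragments in each library by class of promoter, for the 4 targets, with open symbols for WT, filled for KO, circles for replicate 1, triangles for replicate 2, and a bar at the mean of 2, with the 15 members with at least 10 IgG fragments in orange. In the 3 mark targets the 938 members (blue) lie under the H3K4me3-only promoters (green) and above the H3K27me3-only promoters (red) within each library. For the 938 members, both KO values lie above both WT values in the H3K4me3 and H3K27me3 libraries. In the H3K27me3 libraries, the KO and WT values of the green and orange classes overlap.

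Single windows were then tested between KO and WT over all promoters with enough fragments, with limma and Benjamini-Hochberg adjustment. For coverage, limma-voom called 0 members for H3K4me3 (background 0% of 11948 windows), 0 for H3K27me3 (0% of 6491), and 0 for H3K9me3 (0% of 3206). At an unadjusted p under 0.05 there were 35 of 953 members (3.67%, against 3.14% of all windows), 22 of 953 (2.31% against 2.28%), and 2 of 260 (0.769% against 1.59%), and limma-trend called 0 in each. The median log2 difference of members was 0.04 against 0.15 over all H3K4me3 windows and -0.10 against -0.07 for H3K27me3. Scaling to the median window instead of the library total moved the median of all H3K4me3 windows from 0.15 to 0.00 and that of members from 0.04 to -0.10, so the sign of the members' median depends on the scaling. The WT libraries in these differences also chose the members, so nothing is read from their medians or counts for H3K4me3 and H3K27me3. Without WT replicate 2, 5 members were called lower in KO for H3K4me3 (7 of 11395 windows, 0.0614%), and without KO replicate 1, 4 members were called lower for H3K27me3 (15 of 5631, 0.266%). Both fits leave a single library in an arm, which is then assumed to vary like the other group.

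Lin28a, which encodes a regulator of let-7 processing in stem cells and was chosen after its values were seen, had H3K4me3 folds of 62.5 and 7.22 in WT and 10.9 and 6.48 in KO. Its log2 difference in limma-voom was -0.82 ± 0.42 (SE, adjusted p = 1), and it rested on 36 fragments of WT replicate 1. Emilin2, an extracellular matrix gene chosen in the same way, had H3K4me3 folds of 3.47 and 6.62 in WT and 11.8 and 17.5 in KO, and a log2 difference of 1.39 ± 0.55 (SE, limma, adjusted p = 1).

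For the ratio of small to large fragments, centered on the median window of each library, 1 member was called for H3K4me3 (background 0.0107% of 9360 windows), 1 for H3K27me3 (0.0245% of 4089), and 0 of 35 members for H3K9me3 (0% of 643 windows, with 0 members and 8 windows at an unadjusted p under 0.05). The H3K4me3 call was Gm10800, at -0.52 ± 0.06 (SE, limma, adjusted p = 7.2e-14), with -0.12 and -0.73 in the pairs. The H3K27me3 call was Gm10718, at -0.71 ± 0.13 (SE, limma, adjusted p = 0.0499), with -0.58 and -0.21 in the pairs. Both are repeat windows shown at the start, and their small fragments fell relative to the median window. The estimate for Gm10718 lies outside its pair differences, and with the pair as a block it was -0.52, and -0.48 for Gm10800. The fit weights a window by its fragment counts, so in windows this rich in fragments the SE and adjusted p mostly reflect counting. They are a poor measure of the spread between animals, with or without the block. With the sibling pair as a replicate block, 1, 4, and 12 members were called for H3K4me3 (background 0.0107% of 9360 windows), H3K27me3 (0.0978% of 4089), and H3K9me3 (1.87% of 643), all lower and all Gm windows rich in IgG, and 1 member was called for H3K27me3 coverage (0.0154% of 6491), Rps29, at -2.51 (limma, adjusted p = 0.00427). Without the windows rich in IgG, 0 members were called in either test for any mark, with or without the block. On simulated data the ratio test found only part of the changes put in, so few calls do not show that ratios were equal.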

How the data were processed

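AutoCUT&RUN libraries were made from sorted haploid spermatids of 2 WT and 2 KO mice for 4 targets, 16 libraries in all. The deposited files are lists of mapped fragments, 1 line per fragment with chromosome, start, end, and length, and no other score or signal. Per the labels, the authors mapped paired reads of 25 bp to mm10 with Bowtie2 2.3.4.3 (the methods of the study name another version of Bowtie2). They state that duplicates were removed, but 42.6% to 84.4% of autosomal lines repeat the coordinates of another, so each distinct fragment was counted once per library. Distinct autosomal fragments ranged from 140181 to 3963850 per library.

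Folds divide the midpoints in a 2-kb window by the pooled autosomal fragments × 2000 / 2460000000. The members and the gene lists were chosen with earlier results of these data known. Named genes were the members of the gene lists, the 12 with the largest smaller WT fold, the 4 nearest to the threshold on either side, the 5 highest and 5 lowest KO folds per mark, and called windows. The text names some of these and gives the rest as counts, and a gene on chromosome 18 is not reported here. Others are said to be chosen after their values were seen.

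KO and WT were compared by exact permutation tests over libraries and, per window, with limma 3.58.1 in R 4.3.3: limma-voom on fragment counts of windows with at least 10 fragments, and weighted limma on log2 of small over large fragments (0.5 added to each) where at least 10 of both were present, with Benjamini-Hochberg adjustment at 0.05 over all windows. The scripts were tested on simulated data, where the ratio test found only part of the changes. Replicate numbers mark sibling pairs. The titles give all libraries of a number the same date-like code, so pair and experiment date cannot be told apart. Same-numbered libraries deviated together with correlations of 0.234 (H3K4me3), 0.298 (H3K27me3), and 0.171 (H3K9me3). Intervals at 95% (Wilson for shares, Poisson for folds) cover counting error only. Other tools were samtools 1.23.1, pysam 0.24.0, and SciPy 1.17.1 under Python 3.11.15, with the GRCm38.p6 sequence and GENCODE vM21 gene starts.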

Additional observations from a re-analysis of the deposited data

How the results depend on the processing

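Of 205 alternative values, 147 stayed within the spread or within 1.5 times the count, and 56 moved. In 2, the sign changed where the main difference lay beyond its spread. In 4 more, differences that lay within their spread changed sign, the H3K9me3 ratio against H3K4me3-only promoters (0.13 with every deposited fragment) and those against all autosomal fragments (0.16 for H3K9me3, with every deposited fragment and without replicate 2, and 0.20 for H3K27me3 without replicate 2). The 953 members became 1792 with a fold of at least 3, 493 with at least 8, and 1356 to 1499 when WT replicates were left out in turn. Where a value moved, the cause was not tested, except that fewer windows or libraries enter by construction.

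Leaving out the windows with at least 10 IgG fragments, chosen after seeing the data, moved the KO-WT difference in the log2 small to large ratio to 0.83 (H3K4me3), 0.53 (H3K9me3), and 0.09 (IgG). It moved the ratio of members against H3K4me3-only promoters to -1.88 (H3K27me3 libraries) and -0.08 (IgG), against H3K27me3-only promoters to 0.34 (H3K27me3) and -0.05 (IgG), and against all autosomal fragments to -0.26 (IgG). The log2 fold against H3K4me3-only promoters became 0.76 (H3K9me3) and reversed to -0.88 (IgG, from 6.09). That against H3K27me3-only promoters fell to -0.07 ± 0.08 (SD, H3K9me3, from 7.46), within its spread, and became 0.38 (IgG). The limit itself was set on these IgG fragments, and the sums over the single-mark classes lack such windows in every setting. Calls in the ratio fell to 0 for H3K4me3 and H3K27me3, with the replicate block too.

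With every deposited fragment, the KO-WT difference for H3K4me3 was 0.90. The ratio against H3K4me3-only promoters was -0.28 (H3K4me3), 0.13 (H3K9me3), and -0.61 (IgG), against H3K27me3-only promoters 0.38 (H3K4me3), and against all autosomal fragments -0.11 (H3K4me3) and -1.05 (IgG). The log2 fold against H3K4me3-only promoters was 10.02 (H3K9me3) and 3.97 (IgG), and against H3K27me3-only promoters 9.02 and 5.67. The ratio test called 3 members (H3K4me3, 0.0273% of all windows) and 7 (H3K27me3, 0.131%).

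In windows of 500 bp either side, the ratio against H3K4me3-only promoters was -1.80 (H3K27me3) and -1.65 (IgG), and the H3K9me3 log2 fold was 8.52 against H3K4me3-only and 7.71 against H3K27me3-only promoters. With the other mark under a fold of 5 in the classes, these were -1.28 (H3K27me3 ratio) and 8.11 (H3K9me3 fold) against H3K4me3-only promoters. Limits of 100 and 140 bp gave -1.68 (IgG). In the H3K27me3 tests, no filter on low counts called 1 member in coverage (0.00589% of all windows), higher in KO and in a window rich in IgG. At least 20 small and large fragments, or 1 added to each count, called 0 in the ratio.

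Leaving out 1 replicate at a time, the H3K4me3 KO-WT difference was 0.53 to 0.78. Calls per window also moved when 1 library was left out, but such fits leave a single library in an arm, so their calls are not read. In the H3K27me3 ratio without KO replicate 1, the median log2 difference was -0.22 in members and -0.00 over all windows tested. The replicate block, which pairs siblings, called 1 member in H3K27me3 coverage and 4 (H3K27me3) and 12 (H3K9me3) in the ratio, and changed no other count of calls.

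Among the H3K4me3 and H3K27me3 libraries, depth limits single windows most in H3K27me3 of WT replicate 2, where 177 members held 0 fragments.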

Other observations

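Histone genes, a family chosen after the values were seen, were often members. Of 67 promoters of genes whose symbol starts with Hist, 19 (28.4%) were members, against 4.58% of all promoters, and 18 of the 19 lie on chromosome 13, where the large histone cluster is. They include Hist1h1a, which encodes a linker histone, and core histone genes such as Hist1h2bb, Hist1h3c, and Hist1h3f. Their median WT folds were 9.83 for H3K4me3 and 8.04 for H3K27me3, 10 of the 19 had the larger fold for H3K4me3, and 15 were past both thresholds in KO. Histone genes of the same type can be similar copies in close array, and their windows can overlap. Their part in the result was not tested.

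Other families were chosen the same way. Of 92 promoters of potassium channel genes (Kcn) 11 (12%) were members (17.7% of the 62 past the H3K27me3 threshold, against 18.2% over all such promoters), of 372 solute carriers (Slc) 21 (5.65%, or 15.3% of those past the H3K27me3 threshold), and of 388 zinc finger genes (Zfp) 13 (3.35%, or 16.7%). The differences between these shares were not tested. Of 1128 olfactory receptor genes (Olfr) and 329 vomeronasal receptor genes (Vmn), 0 were members, and H3K4me3 was past the threshold at 14 and 5 of them.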
